A study of Mus musculus with 12 samples.

Results

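The 10 genes described here are regulators and markers of the epithelial-mesenchymal transition (EMT): the transcriptional repressors Zeb1, Zeb2, Snai1 and Snai2, the basic helix-loop-helix factor Twist1, the intermediate filament gene Vim, the cadherin gene Cdh2, the matrix gene Fn1, the calcium-binding protein gene S100a4 and the smooth muscle actin gene Acta2. They were listed by name, with earlier results of these data known. Every probe whose platform gene symbol equals a member was taken, which gave 26 probes of the 45281 on the array, where 19057 genes are named by at least 1 probe. Of the 10 genes, 6 had a probe that could be tested.

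Total RNA came from PKSV-PCT cells, a mouse kidney line from the proximal convoluted tubule, that constitutively expressed human sex hormone-binding globulin (SHBG), a steroid-binding plasma glycoprotein. Cells carried either wild-type human SHBG or the S42L mutant, for which the submitters could detect no binding of steroid. Both were made with a pRC/CMV construct and obtained as limiting-dilution clones that secreted SHBG, so the variant and the clone cannot be told apart. The 4 groups, each with 3 arrays, were wild-type SHBG with 100 nM 5a-dihydrotestosterone (DHT), wild-type SHBG with 100 nM testosterone, S42L SHBG with DHT and S42L SHBG with testosterone. Hormone was given for 24 h, and the labels add 3 days without steroid, worded as coming after it. All cells grew with 2% fetal bovine serum, insulin, dexamethasone, triiodothyronine and EGF, and no group went without androgen or without human SHBG. Each androgen had a chip to itself, so androgen and chip cannot be told apart. S42L arrays took the same 3 positions on both chips and wild-type arrays the other 3, so variant and position cannot be told apart either.

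In EMT, epithelial cells lose junctions and apical-basal polarity and gain a motile, matrix-producing state. Zeb and Snail family proteins are zinc-finger repressors that bind E-box sequences and repress epithelial genes such as Cdh1, which encodes E-cadherin. Vimentin, N-cadherin (Cdh2), fibronectin (Fn1), S100a4 and alpha-smooth muscle actin (Acta2) are the usual markers of the mesenchymal side, and in the injured kidney tubule they are followed as signs of dedifferentiation and fibrosis.

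A probe's level is given as a background-corrected, quantile-normalized log2 signal, and a difference on this scale is a log2 fold change. A probe was detected on an array where its detection p-value, against negative control beads, was below 0.05, and was tested where it was detected on at least 3 of 12 arrays. Differences were tested with limma and are called where the Benjamini-Hochberg adjusted p over all 19480 tested probes was below 0.05. The ± after a difference is its standard error. Nothing in the labels says whether the 3 arrays of a group came from separate cultures, so the p-values measure the spread between these arrays, which may be technical. Median raw signals of the arrays ran from 116.5 to 139.8, and 17314 to 19204 probes were detected per array. Replicate arrays correlated at 0.983 or more, with the lowest value in the wild-type testosterone group.

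The promoter sequences of the genes that these repressors are known for give the context of the measurements. The E-box CAGGTG, read on either strand (reverse complement CACCTG, the motif not overlapping another that was searched), was looked for in RefSeq windows of GRCm38.p6 that reach from 250 bases before to 50 bases after a start site. It was present in 20.2% of all 32851 windows, and 22.6% of 27025 genes had at least 1 window with it. Among the 10 EMT genes, 6 had a usable window and 1 of these, Snai1, held the motif. Among the 18 tested epithelial genes listed below as targets of the repressors, 12 had a window and 9 of them held it. The windows of 4 genes are shown as examples and do not span all cases. Tjp3 and Crb3 are tight junction and polarity genes that were lower in wild-type SHBG cells. Snai1 and Vim are members with and without the motif. A target that was lower without the motif, and targets with it that were not called, are not shown. Zeb1 and Cdh1 had no usable window. Capitals mark the motif on either strand, and each sequence reads 5′ to 3′ along the gene's strand.
Tjp3 chr10:81291532-81291831 (minus strand): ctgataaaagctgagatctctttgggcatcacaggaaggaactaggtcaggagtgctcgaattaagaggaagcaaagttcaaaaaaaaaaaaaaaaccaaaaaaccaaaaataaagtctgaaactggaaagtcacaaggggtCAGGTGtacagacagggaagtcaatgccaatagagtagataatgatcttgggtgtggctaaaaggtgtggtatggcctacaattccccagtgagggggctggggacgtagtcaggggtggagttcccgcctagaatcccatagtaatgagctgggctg
Crb3 chr17:57061951-57062250 (plus strand): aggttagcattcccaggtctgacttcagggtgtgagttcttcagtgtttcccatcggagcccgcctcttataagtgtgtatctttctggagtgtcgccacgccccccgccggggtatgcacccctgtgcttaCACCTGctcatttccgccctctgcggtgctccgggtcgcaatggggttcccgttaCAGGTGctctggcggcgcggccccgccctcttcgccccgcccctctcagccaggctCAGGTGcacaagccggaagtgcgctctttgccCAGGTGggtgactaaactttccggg
Snai1 chr2:167537945-167538244 (plus strand): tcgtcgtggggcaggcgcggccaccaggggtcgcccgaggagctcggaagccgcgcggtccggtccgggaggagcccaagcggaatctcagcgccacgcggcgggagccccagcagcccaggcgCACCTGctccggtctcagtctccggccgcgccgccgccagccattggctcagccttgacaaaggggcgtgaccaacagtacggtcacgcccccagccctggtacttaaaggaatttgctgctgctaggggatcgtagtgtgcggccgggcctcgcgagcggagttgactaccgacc
Vim chr2:13574061-13574360 (plus strand): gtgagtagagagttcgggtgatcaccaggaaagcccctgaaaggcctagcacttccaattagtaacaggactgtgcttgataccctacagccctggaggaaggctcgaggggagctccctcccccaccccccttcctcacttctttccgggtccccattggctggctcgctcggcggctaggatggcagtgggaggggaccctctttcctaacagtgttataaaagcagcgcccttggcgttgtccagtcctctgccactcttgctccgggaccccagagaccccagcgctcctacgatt
In the Tjp3 window shown the motif began 108 bases before the start site, and a second Tjp3 window, of another start site, held it 17 bases before that start. The Crb3 window shown held it at 118, 63 and 7 bases before the start and again 26 bases after it, and Snai1 held it at 126 bases before the start. These are matches of letters only. Of the 5 target genes with a window that were lower in wild-type cells, 4 held the motif, and of the 7 that were not called, 5 did.

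Most of the probes of these genes were not above background, while 6 of the 10 genes had at least 1 probe that was. Of the 26 probes, 8 were tested, and of the 18 others 12 were detected on none of the 12 arrays and 6 on 1 or 2. Zeb1, Zeb2, Vim and Fn1 had a probe detected on all 12 arrays. S100a4 was detected on 11 and Snai1 on 8. Snai2, a second Snail family repressor, was not detected on any array, and its raw signal stayed between 100.0 and 135.0. Twist1, a regulator of mesoderm that also drives EMT, was detected on 2 arrays, 1 of wild-type and 1 of S42L cells with testosterone. Both Cdh2 probes were detected on 2 arrays, 1 with wild-type SHBG and testosterone and 1 with S42L SHBG and DHT. None of the 6 Acta2 probes was detected on more than 1 array. The untested probes lay between 4.27 and 5.61 on the log2 scale, so Snai2, Twist1, Cdh2 and Acta2 were not well above background in any group. Fitted without the filter, the variant differences of all 18 untested probes over both androgens ran from -0.13 to 0.28. None was called, with a lowest limma adjusted p of 0.109.

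**Figure D1:**
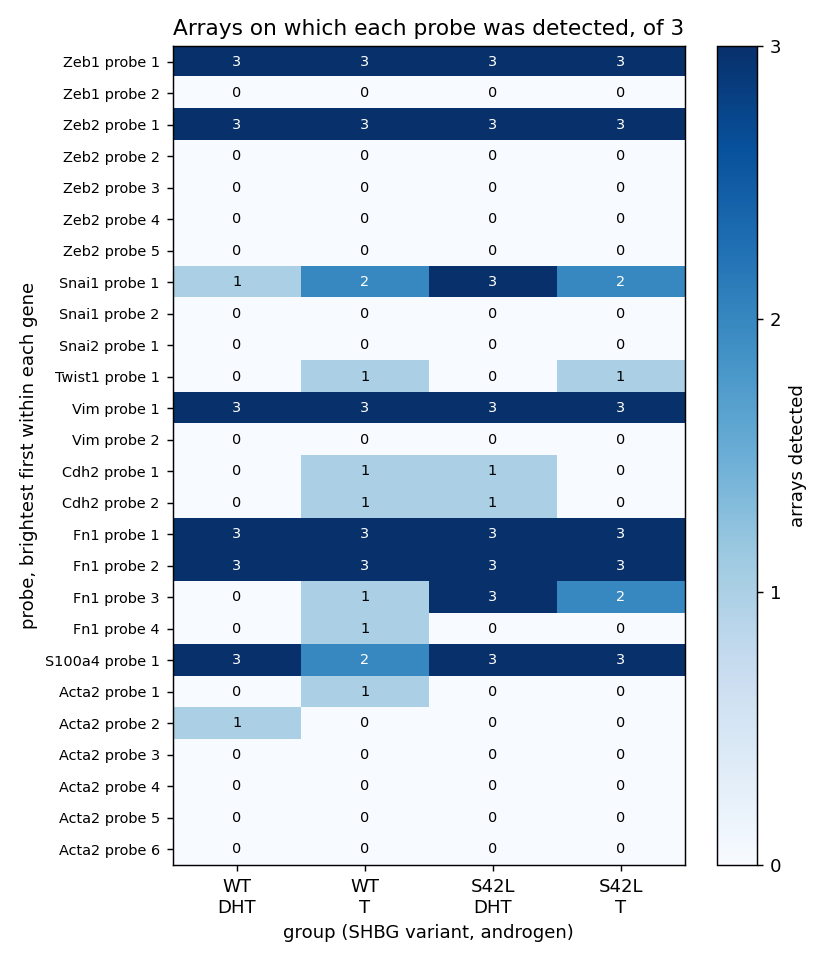
Each row is 1 of the 26 probes, the brightest first within each gene, and each column is 1 of the 4 groups (WT, wild-type SHBG; T, testosterone). The number and the shade give the arrays of 3 on which the probe was detected: the first probes of Zeb1, Zeb2, Vim and Fn1 read 3 in all groups, and Snai2 reads 0.

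The main question was how cells with wild-type SHBG differed from cells with the S42L mutant. Of the 6 measured EMT genes, Zeb1 was the one called over both androgens, and it was higher with wild-type SHBG. Zeb2 was called under DHT, a call that 14 of 22 other settings did not keep. Vim, Fn1, Snai1 and S100a4 were not called in any comparison. Over all probes the variant difference was widespread: 37.8% of the 19480 tested probes were called over both androgens, 19.2% higher and 18.6% lower with wild-type SHBG. Under DHT 22.9% were called, and under testosterone 23.8%. By gene, 40.0% of the 10337 tested named genes were called over both androgens, 19.5% higher and 20.5% lower, against 1 of 6 here, and no comparison is drawn from so few genes. With median scaling in place of quantile normalization, 30.1% of the called probes were higher in place of 50.9%, and the median of all probes under testosterone shifted by -0.12.

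Zeb1 was detected on every array and was higher with wild-type SHBG under both androgens. In wild-type cells its log2 signal was 9.79, 9.75 and 9.84 with DHT and 9.83, 9.82 and 9.65 with testosterone. In S42L cells it was 8.98, 8.96 and 9.23 with DHT and 9.24, 8.96 and 9.07 with testosterone. All 6 wild-type arrays thus lay above all 6 S42L arrays. Of all tested probes, 19.7% had variant groups that did not overlap over both androgens. The difference was 0.71 ± 0.08 (95% interval 0.54 to 0.88, limma adjusted p = 2.4e-05), a 1.63-fold higher signal. Within an androgen the Zeb1 groups did not overlap either, as was so for 42.7% of all tested probes under DHT and 37.9% under testosterone. The difference was 0.74 ± 0.11 under DHT (limma adjusted p = 0.00059) and 0.67 ± 0.11 under testosterone (limma adjusted p = 0.0010). The second Zeb1 probe was not detected on any array.

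Zeb2, the paralog of Zeb1 with the same kind of zinc-finger clusters, lay close to background. With wild-type SHBG its log2 signal was 6.28, 5.73 and 6.33 under DHT and 5.73, 5.77 and 6.09 under testosterone. With S42L it was 5.65, 5.74 and 5.12 under DHT and 5.90, 5.52 and 5.84 under testosterone. The groups overlapped under both androgens. Under DHT, wild-type replicate 2 lay among the S42L arrays, and under testosterone wild-type replicates 1 and 2 lay below S42L replicates 1 and 3. The difference under DHT was 0.61 ± 0.20 (limma adjusted p = 0.045), and over both androgens it was 0.36 ± 0.14 (limma adjusted p = 0.064). Under testosterone it was 0.11 ± 0.20, with an interval from -0.33 to 0.54. Without S42L DHT replicate 3 the DHT difference was 0.42 (limma adjusted p = 0.167), and without wild-type DHT replicate 1 or 3 it was 0.53 (0.138) or 0.50 (0.153). With median scaling it was 0.46 (adjusted p = 0.132). The difference between the DHT and testosterone values, tested as an interaction, was 0.50 ± 0.28 and not called. The other 4 Zeb2 probes were not detected on any array.

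Snai1, the Snail family repressor first tied to Cdh1, was detected on 1 of 3 wild-type DHT arrays, 2 of 3 wild-type testosterone arrays, all 3 S42L DHT arrays and 2 of 3 S42L testosterone arrays. Its log2 signal with wild-type SHBG was 5.37, 4.94 and 4.97 under DHT and 4.72, 5.49 and 5.22 under testosterone. With S42L SHBG it was 5.48, 5.03 and 5.31 under DHT and 5.79, 5.01 and 5.06 under testosterone. The groups overlapped, and the difference over both androgens was -0.16 ± 0.17 (95% interval -0.52 to 0.20, limma adjusted p = 0.48).

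Vim, which encodes the intermediate filament protein vimentin, was far above background in every group. Its log2 signal was 13.47, 13.56 and 13.61 in wild-type DHT, 13.64, 13.70 and 13.48 in wild-type testosterone, 13.27, 13.58 and 13.61 in S42L DHT and 13.52, 13.44 and 13.43 in S42L testosterone arrays. The groups overlapped. The difference over both androgens was 0.10 ± 0.08 (limma adjusted p = 0.35), and its interval from -0.07 to 0.28 lies wholly below that of Zeb1.

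Fn1, the gene of the matrix glycoprotein fibronectin, was measured by 3 tested probes, all with lower means in wild-type cells and none called. The brightest read 11.29, 11.22 and 11.28 in wild-type DHT arrays and 11.36, 11.55 and 10.57 in wild-type testosterone arrays. In S42L cells it read 11.20, 11.59 and 11.52 with DHT and 11.61, 11.73 and 11.54 with testosterone. Wild-type testosterone replicate 3 stood well below the other 11 arrays. The difference over both androgens was -0.32 ± 0.14 (95% interval -0.63 to -0.01, limma adjusted p = 0.096). Without that array it was -0.18 (adjusted p = 0.124), and without wild-type testosterone replicate 2 it was -0.42 (adjusted p = 0.027), so single arrays decide this value. It was called with median scaling (-0.36, adjusted p = 0.044). Under DHT it was -0.18 ± 0.20 and under testosterone -0.47 ± 0.20 (limma adjusted p = 0.115). The testosterone value was called with median scaling (-0.53, adjusted p = 0.0498), with no background correction (-0.45, 0.041) and without wild-type testosterone replicate 2 (-0.67, 0.032), and was -0.18 without wild-type testosterone replicate 3 (0.346).

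The second Fn1 probe ran from 6.84 to 7.65 in wild-type and from 7.10 to 7.93 in S42L cells, and its difference was -0.26 ± 0.12 (limma adjusted p = 0.11). The third, near background, ran from 4.64 to 5.51 in wild-type and from 4.88 to 5.54 in S42L cells, with a difference of -0.34 ± 0.14 (limma adjusted p = 0.072). Under DHT this probe was detected on no wild-type array and on all 3 S42L arrays, and the groups did not overlap, as was so for 42.7% of all tested probes. It passed the filter through S42L cells, where it was higher, so its difference supports nothing by itself. Its signal there was at least 1.24-fold higher in S42L cells, a bound that sets S42L's mean against the higher of the probe's own signal and the lowest detected signal on each wild-type array (limma adjusted p = 0.055).

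S100a4, a small calcium-binding protein gene used as a fibroblast and EMT marker, stayed close to background. It read 5.17, 5.59 and 5.58 in wild-type DHT, 4.95, 5.29 and 5.28 in wild-type testosterone, 5.22, 5.07 and 5.12 in S42L DHT and 5.72, 5.08 and 5.60 in S42L testosterone arrays. The variant difference was 0.31 ± 0.17 under DHT and -0.29 ± 0.17 under testosterone, neither called. Their difference, the interaction, was 0.61 ± 0.24, with an unadjusted p of 0.029 and a limma adjusted p of 1.0. Over both androgens it was 0.01 ± 0.12.

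**Figure D2:**
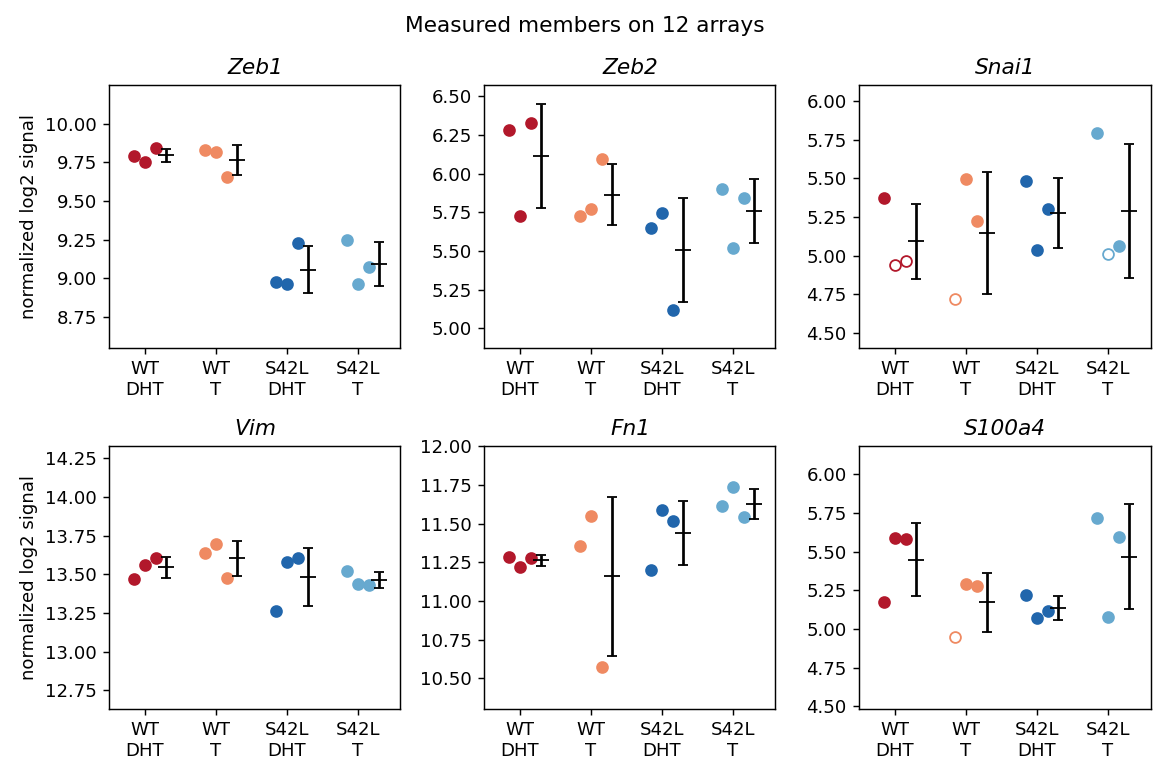
Normalized log2 signal of the 6 measured genes on the 12 arrays, by SHBG variant (WT, wild-type) and androgen (T, testosterone). Points are arrays, open where the probe was not detected, and bars give mean ± SD of the 3 arrays. All panels span the same log2 range, and Zeb1 is the panel in which the red and orange wild-type points lie wholly above the blue S42L points.

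**Figure D3:**
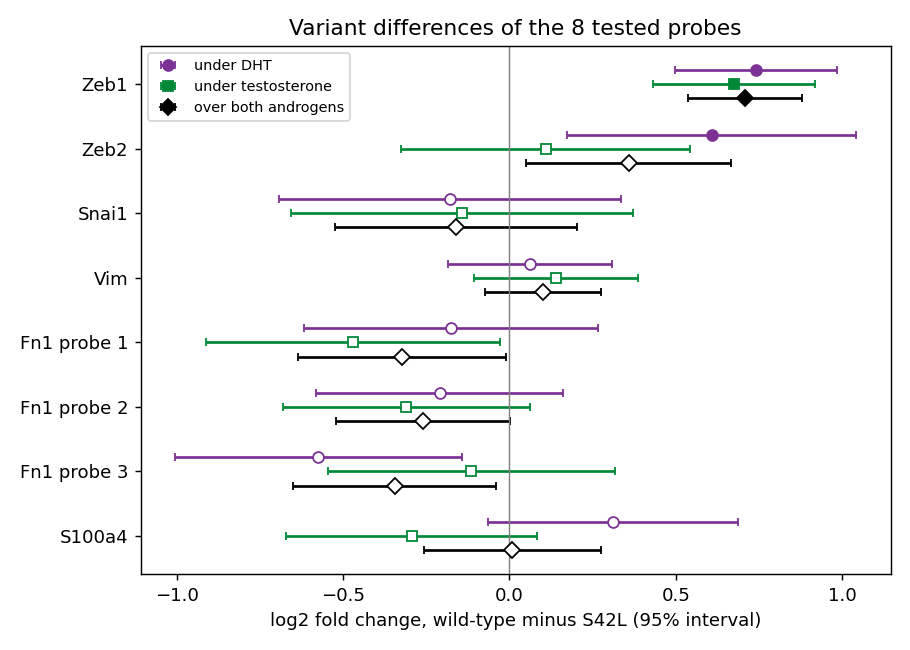
Variant difference (log2, wild-type minus S42L) of the 8 tested probes under DHT, under testosterone and over both, with 95% intervals and filled symbols for adjusted p below 0.05. The Zeb1 differences of 0.74, 0.67 and 0.71 and the Zeb2 difference under DHT are the filled ones.

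DHT and testosterone were also set against each other within each variant, with the chip confounded as said above. Over all probes 0.0719% were called in wild-type and 0.267% in S42L cells, and 0.00513% were called for the interaction. None of the 8 EMT probes was called in any of these. At an unadjusted p below 0.05 there was none in wild-type cells, 1 in S42L cells, the second Fn1 probe (-0.43 ± 0.17, limma adjusted p = 0.30), and 1 for the interaction, S100a4. For Zeb1 the DHT minus testosterone difference was 0.03 ± 0.11 in wild-type cells (interval -0.22 to 0.27) and -0.04 ± 0.11 in S42L cells (interval -0.28 to 0.21). Those intervals hold neither the size of its variant difference under DHT nor that under testosterone.

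Cdh1, the classical target of the Zeb and Snail repressors, was measured on the same arrays. It read 6.85, 7.32 and 7.21 in wild-type DHT and 7.38, 7.57 and 7.69 in wild-type testosterone arrays. In S42L cells it read 9.11, 9.16 and 9.04 with DHT and 9.36, 9.27 and 9.28 with testosterone. The groups did not overlap over both androgens, as was so for 19.7% of all tested probes. The difference was -1.87 ± 0.09 (limma adjusted p = 2.1e-08). The arrays thus fell into 2 clusters, high Zeb1 with low Cdh1 and the reverse, which were the variants themselves, so no correlation over all arrays is given. Any 2 probes without overlap and of opposite direction give such clusters, so these do not show a link between the genes.

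**Figure D4:**
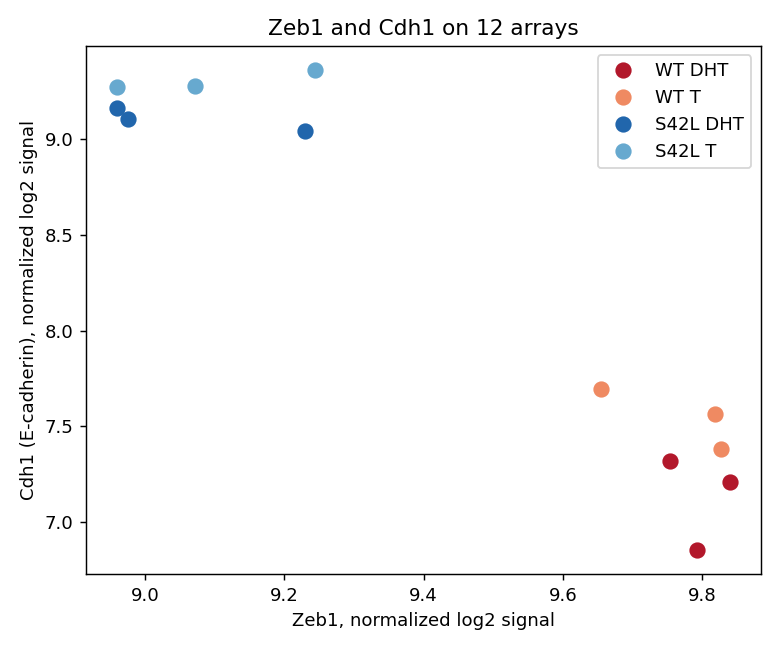
Zeb1 (horizontal) against Cdh1 (vertical), both as normalized log2 signal, with 1 point for each of the 12 arrays coloured by group (WT, wild-type; T, testosterone). The 6 wild-type arrays lie at the lower right and the 6 S42L arrays at the upper left, with none between. Any pair of probes with non-overlapping variant groups in opposite directions gives this picture.

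The gene lists here and below were chosen with earlier results of these data known, so their shares are descriptions only. Of 18 tested epithelial targets of the repressors, from 27 listed, 10 fell with wild-type SHBG relative to S42L over both androgens and none rose. Of all tested named genes, 20.5% were lower and 19.5% higher. The list had a median difference of -0.25 against 0.01 over all tested named genes. Within 1 androgen fewer were called lower, 4 under DHT and 6 under testosterone, and none higher. Of the 10337 tested named genes, 1372 were lower under DHT and 1455 under testosterone. Of the 10, Ocln and Tjp3 were detected on fewer than 3 wild-type arrays and so passed the filter through S42L cells, where they were higher, and leaving out the 3 such genes of the list gave 8 of 15 that fell. Beside Cdh1, the tight junction scaffold gene Tjp3 was lower at a difference given as at least 2.09-fold, since it was detected on no wild-type testosterone array. The keratin genes Krt8 and Krt18 were not called, with differences of -0.09 ± 0.07 and 0.07 ± 0.07. The count of 10 over both androgens was 6 without S42L DHT replicate 2, S42L testosterone replicate 1 or S42L testosterone replicate 3. Among 8 tested epithelial guardians, regulators that hold the epithelial state, 5 fell and 1 rose (20.5% and 19.5% over all named genes), with a median of -0.35. Of the 5, Ovol1 was detected on no wild-type array and passed the filter through S42L cells alone, and without it 4 of 7 fell. Another probe of Esrp2, also among the 5, was called in the opposite direction. The splicing regulator Esrp1 (-1.30 ± 0.07) and the Krüppel-like factor Klf4 (-0.70 ± 0.18) were lowest, and Klf5 was higher (0.68 ± 0.08).

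Among 9 tested transcription factors tied to EMT beyond the members, 5 rose and 1 fell, against 19.5% and 20.5% of all named genes, with a median of 0.44. Sox9, a factor of tubule repair and of chondrocytes, was higher by 0.91 ± 0.07 and the Ets factor Etv4 by 0.75 ± 0.14, while Tcf4 (E2-2) was lower, at -0.49 ± 0.08. Id1 and Id2, dominant-negative partners of basic helix-loop-helix factors, were among the 5 that rose. The count thus mixes factors with inhibitors of factors and does not give a direction of EMT. The list named TGF-beta inputs held ligands, receptors and Smads, and also target genes of the pathway such as Ctgf and Skil. Of its 9 tested genes, 3 rose and none fell, against the same shares of all named genes, with a median of 0.12. These were the matricellular gene Ctgf (0.45 ± 0.09), the Smad co-repressor gene Skil (0.38 ± 0.07) and the co-receptor gene Tgfbr3 (0.30 ± 0.09). Without wild-type testosterone replicate 3, 1 gene of the TGF-beta list fell, and without wild-type testosterone replicate 2, 2 of the transcription factors did.

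The mesenchymal effector lists had called genes in both directions, at shares near the 19.5% higher and 20.5% lower of all named genes, which is no result about these lists. Of 15 tested adhesion, matrix and protease genes, 4 rose and 3 fell, with a median of 0.16. The urokinase receptor gene Plaur (0.90 ± 0.07) and the integrin gene Itgav (0.55 ± 0.11) were highest, and Thbs1 (-0.59 ± 0.16) and the cell adhesion gene Ncam1 (-0.52 ± 0.08) lowest. Itgav had 2 other tested probes, neither called. Of 16 tested contractile and myofibroblast genes, 2 rose and 4 fell, with a median of 0.00. Vcl (0.42 ± 0.08), the gene of the adhesion protein vinculin, and Srf (0.31 ± 0.09), a transcription factor of cytoskeletal genes, were higher. The actin-binding caldesmon gene Cald1 fell by 1.30 ± 0.12 on the log2 scale, and the myosin light chain gene Myl9, detected on no wild-type array, was at least 1.25-fold lower. Myl9 passed the filter through S42L cells alone, and without the 3 contractile genes that passed through 1 variant, 3 of 13 fell and 2 rose. The contractile genes that rose numbered 1 without S42L DHT replicate 2 or 3 or wild-type DHT replicate 3, and 4 without wild-type testosterone replicate 3, with no background correction, or with an intensity trend and robust prior. Of 7 tested S100 family genes and partners, 2 rose, S100a16 (0.45 ± 0.10) and Anxa2 (0.19 ± 0.07), and S100a13 fell (-0.41 ± 0.11). With median scaling no gene of the S100 list was called higher, and 1 contractile gene was. No gene of these 7 lists was called in either androgen comparison.

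**Figure D5:**
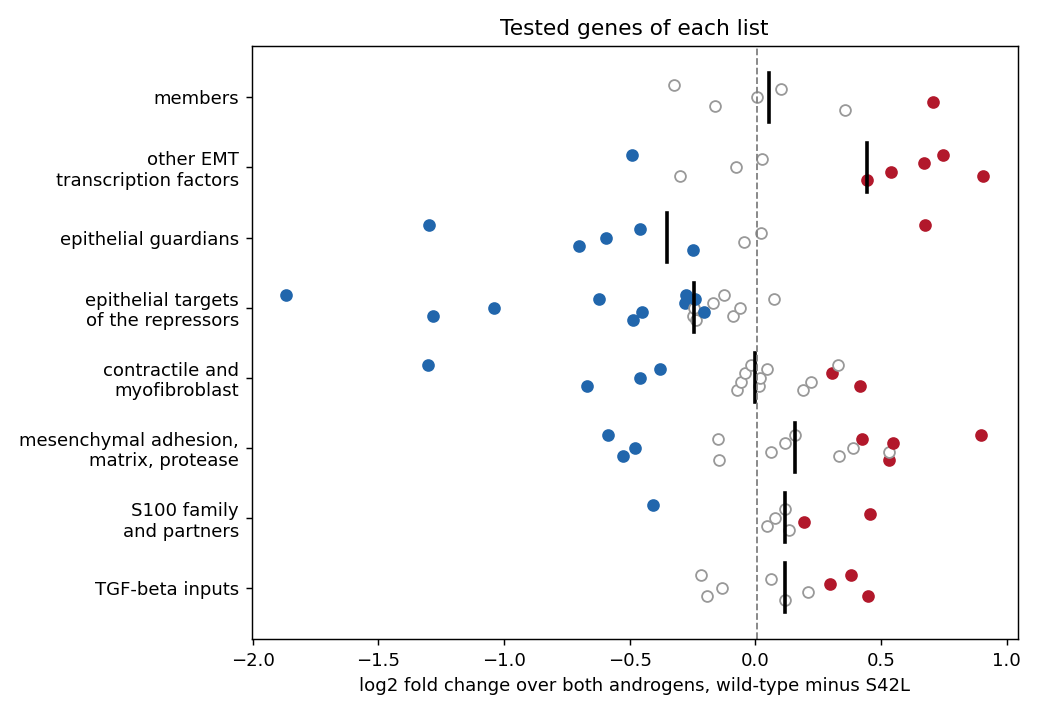
Variant difference over both androgens (log2, wild-type minus S42L) of each tested gene in the 10 EMT genes (members) and the 7 lists. Filled red points were called higher and filled blue points lower, open points were not called, black bars are list medians and the dashed line is the median of all tested named genes. The epithelial targets have 10 blue points and no red one, and the adhesion, matrix and protease genes have 4 red and 3 blue.

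Some cell type markers differed between the variants too. All 5 tested proximal tubule markers were called lower with wild-type SHBG, where 20.5% of all tested named genes were lower and 19.5% higher. The differences were -1.32 for Mme, -1.18 for Aqp1, -0.90 for Anpep, -0.82 for Amn and -0.50 for Lrp2. Of these, Anpep passed the filter through S42L cells alone. Cubn, Slc34a1 and Slc22a6, which also mark that segment, were detected on no array. The summed linear signal of that list was 3562 to 4631 on wild-type and 6688 to 8542 on S42L arrays. Of 9 fibroblast and mesenchyme markers, 5 were detected on no array, Pdgfra, Pdgfrb, Lum, Thy1 and Fap, and 2 were tested. Of these, Col1a1 was not called and Dcn was lower with wild-type SHBG by -4.79 ± 0.10, opposite in direction to Zeb1, and the list's summed signal was 259 to 305 on wild-type and 1627 to 2558 on S42L arrays. Of 7 smooth muscle and pericyte markers, 4, Myh11, Cnn1, Tagln and Rgs5, were detected on no array and none was called (summed signal 301 to 407 on wild-type and 300.2 to 342 on S42L arrays). Of 4 endothelial markers Kdr was tested and called, at least 1.25-fold higher with wild-type SHBG since 1 S42L group had no array that detected it, and it passed the filter through wild-type cells alone, with summed signals of 110 to 165 and 96.0 to 122. Ptprc and Itgam, leukocyte markers, were detected on no array, while Csf1r was lower with wild-type SHBG (-0.99 ± 0.10), with summed signals of 382 to 509 and 686 to 965. The epithelial markers Krt8 and Krt18 were detected on all arrays and not called, Epcam was detected on none, and Cdh1 was lower with wild-type SHBG (-1.87 ± 0.09). The epithelial sum was 38585 to 47214 on wild-type and 44350 to 47092 on S42L arrays. Krt8 and Krt18, the brightest of these genes, make up most of that sum, so it hardly reflects Cdh1. The RNA came from clones of a tubule cell line, so these marker levels do not count fibroblasts, endothelial cells or leukocytes. Whether a level changed in all cells or in some of them cannot be told from bulk RNA. The part of these shifts in the Zeb1 difference was not tested.

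Likeness of pattern was taken as Pearson's r over the 12 arrays against 10336 other tested named genes. It is a description only, because the arrays are of 2 SHBG variants and any gene with a large variant difference scores high. Zeb1 was most like the adhesion molecule gene Vcam1 (r = 0.98, variant difference 2.07 ± 0.11) and Eef1e1 (r = 0.98, 0.59 ± 0.08). Zeb2 was most like Abhd2 and Cog1, both at r = 0.84. Fn1 was most like Mapkapk2 (r = 0.97) and the catenin gene Ctnnd1 (r = 0.96), which were not called between variants. Fn1 was not called either, and its lowest array, wild-type testosterone replicate 3, may carry these r values, which was not tested. Between the 6 measured EMT genes r ran from -0.44 for Zeb1 with Fn1 to 0.56 for Zeb1 with Vim. Zeb2, Snai1 and S100a4 lay close to background, where a low r does not show that patterns differ.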

How the data were processed

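RNA of 12 samples was measured on Illumina bead arrays of the mouse transcriptome. Per the file headers, the authors deposited for each array a mean bead signal of every probe, which is a linear intensity before normalization, together with its detection p-value. The submitters' processing notes name BeadStudio. The authors' processed intensity table, whose background and normalization steps are not given in the sources used here, served as an alternative. neqc (limma 3.58.1, R 4.3.3) took the background from the detection p-values, added an offset of 16, quantile-normalized the signals and put them on a log2 scale. Quantile normalization removes a shift shared by most transcripts, and the offset understates the change of dim probes. Number of arrays limits precision: the median 95% interval reached 0.223 to either side over both androgens, 0.316 for 3 against 3 arrays and 0.446 for the interaction.

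Of 45281 probes, 34885 carry 1 gene symbol in the platform annotation, 18 several and 10378 none, and 34807 of the single symbols matched RefSeq. Each gene is represented by its brightest probe. Groups came from the sample titles. A linear model with 4 group means was fitted with lmFit and eBayes to all 19480 tested probes and gave the variant, androgen and interaction differences. The procedure was tested on simulated data. The members, the gene lists and the marker lists were chosen with earlier results of these data known. The text names each member and, from each list, at most the 2 highest and 2 lowest called genes. Krt8 and Krt18, Id1 and Id2, Tgfbr3, Crb3, Ocln, Ovol1, Esrp2 and the marker genes stand outside that rule and were named after their values were seen. The replicate numbers share no stated source. Same-numbered arrays deviated together in 1 of 18 pairs of arrays from different groups (r above 0.1, range -0.05 to 0.12). No pairing by number was thus seen, which does not settle whether samples shared a culture or batch. Alternatives were another scaling, offset, background, table, filter, probe summary or prior, a replicate block, 1 chip's arrays and leaving out each array.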

Additional observations from a re-analysis of the deposited data

How the results depend on the processing

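Zeb1 kept its direction and call under all 21 alternatives over both androgens (0.60 to 0.75, adjusted p at most 0.00013), all 22 under DHT and all 22 under testosterone. Snai1 and S100a4 have no value under the stricter filter. Zeb2 under DHT lost its call in 14 of 22: with median scaling (0.46), no background correction (0.21), the authors' processed table (0.88), no filter (0.61, adjusted p = 0.084), 1 chip's arrays (0.080), the replicate block (0.056), which changed no other member's call, and 8 of 12 omissions of an array (0.42 to 0.80 over all 12). Over both androgens Fn1 was called with median scaling, an offset of 50, no background correction, the mean of its probes and without wild-type testosterone replicate 2, and Zeb2 with the stricter filter (adjusted p = 0.049) and without S42L DHT replicate 2 (0.048) or wild-type DHT replicate 2 (0.020). The number of members called thus moved from 1 to 2 over both androgens under the first 4 of the Fn1 settings and the stricter filter, from 2 to 1 under DHT with the 6 settings named for Zeb2, and from 1 to 2 under testosterone with median scaling and no background correction, and was 1 to 2 in each when an array was left out. Signs turned, never for a called value, with median scaling for S100a4 over both androgens (-0.099), Zeb2 under testosterone (-0.086), Vim between androgens in S42L cells (-0.014) and the Snai1 interaction (0.033), with the authors' table for Snai1 between androgens in S42L cells (0.014), and with the mean of probes for Fn1 between androgens in wild-type cells (-0.13) and its interaction (-0.021). Leaving out 1 array at a time also turned signs, with ranges under DHT of -0.046 to 0.12 for Vim, and between androgens in S42L cells of -0.12 to 0.039 for Zeb1, -0.15 to 0.23 for Snai1, -0.043 to 0.13 for Vim, and for the interaction of -0.28 to 0.14 for Snai1, -0.0095 to 0.15 for Zeb1, and over both androgens of -0.087 to 0.078 for S100a4, and between androgens in wild-type cells of -0.27 to 0.13 for Snai1, -0.028 to 0.059 for Zeb1, -0.19 to 0.30 for Fn1, and under testosterone of -0.32 to 0.10 for Snai1, -0.0094 to 0.18 for Zeb2. The count of probes differing between androgens in wild-type cells, 14, became 54 with an offset of 50, 71 with no background correction, 9 with the authors' table, 9 with no filter, 28 with the stricter filter, 95 with an intensity trend and robust prior, 8 with the replicate block and 4 to 13 without 1 array. In S42L cells 52 became 193 with median scaling, 229 with an offset of 50, 354 with no background correction, 29 with no filter, 159 with the stricter filter, 312 with the trend, 5 with the block and 2 to 194 without 1 array. The interaction count of 1 became 2 with an offset of 50, no background correction, the authors' table and the trend. The causes were not tested. Snai1, S100a4, Zeb2 and the third Fn1 probe lie so close to background that small differences could not be measured.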
